A study of Mus musculus with 8 samples.

Results

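The effector genes of cytotoxic lymphocytes were examined in mature CD8 single-positive (CD8SP) thymocytes lacking Ndrg3. The list holds 10 genes of the 47937 in the deposited table: Ccl5, Xcl1, Ifng, Fasl, Prf1, Gzma, Gzmb, Gzmk, Gzmm and Nkg7. Ccl5 was chosen by its measured fold change between the genotypes, the lowest of all 14633 genes tested, and the other 9 genes as members of the same effector programme. The genotype values of these 10 genes are therefore a description. Whether a gene passed the threshold of the fit is stated without a p-value and supports nothing. Each gene was found in the table by matching its Ensembl identifier to a mouse symbol.

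The thymocytes were sorted as TCRβ+ and MHC-I high, with 4 libraries from control mice (Ndrg3ctrl, genotype Ndrg3 +/fl;Lck-cre+) and 4 from knockout mice (Ndrg3TKO, genotype Ndrg3 fl/fl;Lck-cre+), all aged 6 to 7 weeks. Both groups carried the Cre transgene, driven by the proximal Lck promoter in developing T cells, and the controls kept 1 intact Ndrg3 allele. Deletion removed a single floxed exon, so transcript from the remaining exons was still counted. The labels call the libraries of a group biological replicates 1 to 4, and p-values here measure the spread between them.

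Cytotoxic lymphocytes kill by releasing granules that hold perforin, which opens pores in the target membrane, and granzymes, the serine proteases that enter through them. They also kill through Fas ligand, and they recruit and activate other cells with the chemokines CCL5 and XCL1 and with interferon gamma. Memory CD8 T cells are known to hold CCL5 message before restimulation, innate-like CD8 thymocytes resemble them, and the T-box factors Eomes and T-bet are known regulators of this programme.

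Total counts ranged from 21126698 to 32668081 per library, so the floor of 3 counts stood at 0.0918 to 0.142 CPM (counts relative to the library total). Ndrg3 itself had between 79.3 and 81.5 normalized CPM (CPM after TMM scaling) in Ndrg3ctrl and between 48.4 and 55.3 in Ndrg3TKO, which matched the labels in all 8 libraries. The 10 CD8 T cell identity genes summed to between 8388 and 9853 normalized CPM in Ndrg3ctrl and between 8743 and 9591 in Ndrg3TKO. Counts of Y-linked genes were present in Ndrg3ctrl replicate 2 and in Ndrg3TKO replicates 2 and 3, and at most 0.0752 CPM in the other 5 libraries.

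The bases upstream of 3 of the genes are printed as examples of genes whose counts behaved differently, without a measure of that difference. Prf1 (chr10:61297586-61297832, plus strand) was abundant and alike in the groups. Gzmb (chr14:56262335-56262584, minus strand) was scarce and without overlap, and Nkg7 (chr7:43436888-43437072, plus strand) was the most abundant. The sequences are those of RefSeq on GRCm38.p6, run 5′ to 3′ on the gene's strand, and end before the transcript start. Capitals mark matches on either strand to the motifs searched.
Prf1: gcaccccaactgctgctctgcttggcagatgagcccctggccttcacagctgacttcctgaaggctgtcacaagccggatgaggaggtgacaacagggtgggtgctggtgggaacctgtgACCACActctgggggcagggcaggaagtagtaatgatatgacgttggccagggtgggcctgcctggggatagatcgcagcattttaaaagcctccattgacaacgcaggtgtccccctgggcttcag
Gzmb: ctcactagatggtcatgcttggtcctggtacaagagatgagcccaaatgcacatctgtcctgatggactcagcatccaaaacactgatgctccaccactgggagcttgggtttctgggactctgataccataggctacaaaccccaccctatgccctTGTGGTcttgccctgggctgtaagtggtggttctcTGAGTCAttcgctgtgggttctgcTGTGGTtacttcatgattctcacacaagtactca
Nkg7: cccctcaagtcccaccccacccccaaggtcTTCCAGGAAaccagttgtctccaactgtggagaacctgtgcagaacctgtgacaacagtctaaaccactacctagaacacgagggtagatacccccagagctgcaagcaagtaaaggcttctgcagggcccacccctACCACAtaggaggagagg

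RefSeq windows of 250 bases before the start were matched for 9 of the genes (10 windows, since Gzmm has 2 starts), and none for Ccl5. The letters TGTGGT, bound by RUNX factors, occurred in 6 of the 10 windows, including those of Prf1, Gzma, Nkg7 and Xcl1, and at 2 places in that of Gzmb, against 14.05% of all 32851 windows of that length. The core GGTGTG of the T-box motif occurred in 5 windows and in 16.3% of all windows. The longer T-box letters AGGTGTGA, which contain that core, were found only in the Nkg7 window, between 14 and 7 bases before the RefSeq start, in a stretch that GENCODE counts as transcript and that is not printed. They occur in 1.12% of all windows. TGANTCA (AP-1) was found in 1 of the 10, that of Gzmb, and TTCNNNGAA (STAT) in 3, those of Nkg7, Gzmm and Ifng, against 6.75% and 7.02% of all windows. GGANTTTCC (NF-kappaB) was found in none of the 10 windows and in 1.07% of all. A match describes letters in the window and shows no binding.

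Measured per length of exon, the message of these genes spanned more than 3 orders of magnitude within the same bulk libraries. Nkg7 stood first in Ndrg3ctrl with 254.9 ± 19.8 normalized CPM per kilobase (SD, n = 4), which is 84.4% of the sum over the 10 genes and the 99.3rd percentile of the 11318 protein-coding genes tested. Xcl1 followed with 24.6 ± 8.29 per kilobase and Prf1 with 18.4 ± 2.77, and these neighbours overlapped between libraries. Gzmm, at 1.56 ± 0.319, and Ccl5, at 1.29 ± 0.124, also overlapped with each other and lay below every Prf1 value. Gzmb (0.475 ± 0.122) and Gzma (0.432 ± 0.145) formed the next overlapping pair, below every Ccl5 value. Fasl (0.165 ± 0.127), Gzmk (0.148 ± 0.0836) and Ifng (0.0781 ± 0.0419) came last, and their ranges overlapped. In Ndrg3TKO the first 4 genes kept their order, Ccl5 at 0.242 ± 0.0901 per kilobase lay within the range of Gzmb, 0.138 to 0.372, and the mean of Gzma stood above both. Ifng, at 0.136 ± 0.114, had a higher mean than Fasl and Gzmk there, with overlapping ranges.

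**Figure D1:**
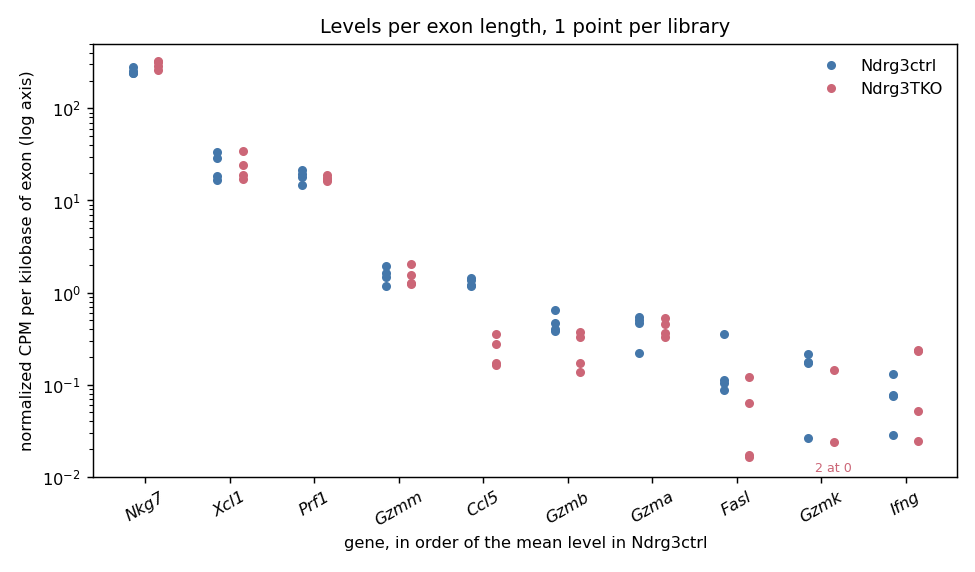
Normalized CPM per kilobase of exon on a log axis for the 10 effector genes, ordered by their mean in Ndrg3ctrl, with 1 point per library (blue, Ndrg3ctrl; red, Ndrg3TKO). Nkg7 lies at 240.8 to 323.9 per kilobase, Xcl1 and Prf1 between 14.8 and 34.8, and the other 7 genes at 2.05 or below. The 2 libraries in which Gzmk was at 0 are written at the foot of the plot.

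Ccl5 encodes a chemokine that draws T cells, monocytes and eosinophils through chemokine receptors. The gene (ENSMUSG00000035042.2) lies on chromosome 11 of GRCm38 from 83525778 to 83530518 on the minus strand. The deposited counts were 39, 28, 34 and 31 in Ndrg3ctrl replicates 1 to 4 and 5, 5, 8 and 11 in Ndrg3TKO replicates 1 to 4. Every Ndrg3TKO library lay below every Ndrg3ctrl library. Scaled for library size, Ccl5 was 1.24 ± 0.119 normalized CPM in Ndrg3ctrl and 0.232 ± 0.0865 in Ndrg3TKO (SD, n = 4 each). The fitted log2 fold change was −2.39 (standard error 0.295), a 5.24-fold lower level. Pooled over libraries, 132 counts in Ndrg3ctrl stood against 29 in Ndrg3TKO, and the ratio was 0.189 with an exact 95% interval of 0.122 to 0.284. This interval, like the others of its kind below, covers counting error only.

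Ccl5 message was thus scarce in both groups, at the 17.1st percentile of the protein-coding genes tested in Ndrg3ctrl, and it entered the test through the control libraries. The variance between libraries was 0.301 times that of counting alone in Ndrg3ctrl and 1.01 times in Ndrg3TKO, so the libraries of a group differed by no more than counting would give. The highest Ndrg3TKO library, replicate 4, had 0.338 normalized CPM with an exact Poisson interval of 0.169 to 0.604. The lowest Ndrg3ctrl library, also replicate 4, had 1.13 with an interval of 0.770 to 1.61. In bulk RNA, fewer cells with Ccl5 message and less message per cell cannot be told apart, here or for any gene below.

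Ccl5 was the single gene of the list past the adjusted threshold of 0.05, of 7 that passed the count filter, and it was lower. Of all tested genes, 0.355% were called lower in Ndrg3TKO, 0.793% were called higher and 1.15% were called in either direction. Since this contrast chose Ccl5, nothing is read from that count. The 7 genes that passed the filter are not the whole list, and Gzmk, Ifng and Fasl had enough counts in too few libraries to pass it. Without a filter, Ccl5 was again the 1 gene called, beside 1.11% of all 24678 genes fitted. In that fit, 8 of the 10 log2 fold changes were below 0 and 2 above, with a median of −0.06 beside 0.00 for all genes.

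**Figure D2:**
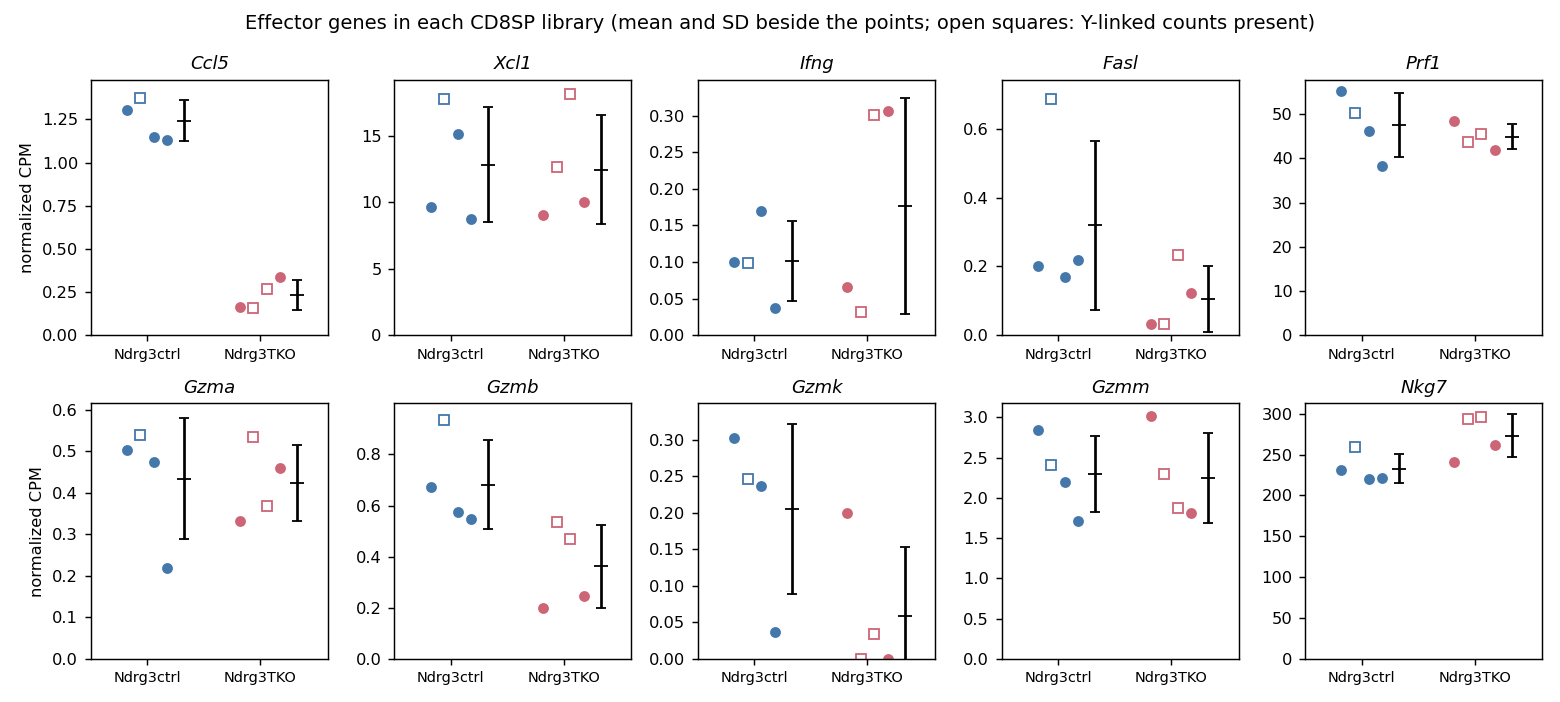
Normalized CPM of each effector gene, with 1 point per library and the mean and SD (n = 4) beside the points. Each panel has its own axis from 0, and open squares mark the 3 libraries with Y-linked counts. The groups separate for Ccl5, whose Ndrg3TKO libraries reach at most 0.338 and whose Ndrg3ctrl libraries begin at 1.13, and narrowly for Gzmb, while they overlap in the other 8 panels.

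Xcl1 encodes lymphotactin, which attracts cross-presenting dendritic cells through XCR1. The gene (ENSMUSG00000026573.7; chromosome 1, 164931644 to 164935527, minus strand) had 289, 362, 449 and 240 counts in Ndrg3ctrl and 273, 403, 545 and 326 in Ndrg3TKO, in replicate order. In each group replicates 2 and 3 were the high libraries and 1 and 4 the low ones. Normalized levels of 12.9 ± 4.34 and 12.5 ± 4.11 CPM (SD, n = 4 each) gave a log2 fold change of −0.04 (standard error 0.301). The groups overlapped over most of their range. The variance between libraries was 38.1 times that of counting in Ndrg3ctrl and 41.9 times in Ndrg3TKO, so counting contributed little to this spread. The antisense gene Gm20743, whose exons overlap those of Xcl1, had 1 count over all 8 libraries.

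Ifng encodes interferon gamma, which activates macrophages and raises MHC expression. The gene (ENSMUSG00000055170.3; chromosome 10, 118441046 to 118445892, plus strand) had 3, 2, 5 and 1 counts in Ndrg3ctrl and 2, 1, 9 and 10 in Ndrg3TKO. Replicates 3 and 4 of Ndrg3TKO were the highest libraries, while the counts of replicates 1 and 2 lay inside the control range. After scaling, Ndrg3TKO replicate 2 (0.0314 normalized CPM) lay just below the lowest control, replicate 4 (0.0366). The pooled ratio of Ndrg3TKO to Ndrg3ctrl was 1.72, with an exact 95% interval of 0.799 to 3.93 that includes equality. Part of the gene overlaps exons of Gm49751 on the same strand, and reads of the overlap cannot be told apart.

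Fasl encodes the ligand of the death receptor Fas. The gene (ENSMUSG00000000817.10; chromosome 1, 161780689 to 161788495, minus strand) had 6, 14, 5 and 6 counts in Ndrg3ctrl and 1, 1, 7 and 4 in Ndrg3TKO. Control replicate 2 stood above all other libraries, and Ndrg3TKO replicate 3 lay within the control range. The pooled ratio was 0.361 (exact 95% interval 0.173 to 0.709), and the fit without a filter gave a log2 fold change of −1.49 (standard error 0.615), which did not pass the threshold.

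Prf1 encodes perforin, without which granzymes do not reach the target cytosol. The gene (ENSMUSG00000037202.5; chromosome 10, 61297833 to 61304680, plus strand) had 1648, 1025, 1366 and 1048 counts in Ndrg3ctrl and 1464, 1395, 1361 and 1367 in Ndrg3TKO. Normalized levels were 47.5 ± 7.17 and 44.9 ± 2.78 CPM (SD, n = 4 each), and every Ndrg3TKO library lay between the lowest and the highest control. The log2 fold change was −0.08 (standard error 0.0940). Prf1 stood at the 76.6th percentile of protein-coding genes by control level per length, while Gzma and Gzmb stood at the 9.34th and the 9.94th.

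The granzymes differ in what they cleave: granzyme B cuts after aspartate and activates caspases, granzymes A and K are tryptases, and granzyme M cuts after methionine. Gzma and Gzmk are neighbours on the minus strand of chromosome 13, 70627 bases apart. Gzma (ENSMUSG00000023132.7, 113093825 to 113100981) had 15, 11, 14 and 6 counts in Ndrg3ctrl and 10, 17, 11 and 15 in Ndrg3TKO. The groups overlapped, at 0.434 ± 0.146 and 0.423 ± 0.0916 normalized CPM (SD, n = 4 each), and the log2 fold change was −0.02 (standard error 0.344). The exact 95% interval of the pooled ratio ran from 0.655 to 1.504.

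Gzmk (ENSMUSG00000042385.14, 113171608 to 113225908) had 9, 5, 7 and 1 counts in Ndrg3ctrl and 6, 0, 1 and 0 in Ndrg3TKO. In Ndrg3TKO, 6 of the 7 counts came from replicate 1, which lay within the control range, as the lowest control, with 1 count, lay within that of Ndrg3TKO. The pooled ratio was 0.274 (exact 95% interval 0.0987 to 0.663), and the unfiltered fit gave a log2 fold change of −1.78 (standard error 0.803), which did not pass the threshold. The counts of 0 in Ndrg3TKO replicates 2 and 4 have exact Poisson upper limits of 0.116 and 0.113 normalized CPM. The floor of 3 counts stood at 0.0942 and 0.0921 in those libraries.

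Gzmb (ENSMUSG00000015437.4; chromosome 14, 56258838 to 56262260, minus strand) had 20, 19, 17 and 15 counts in Ndrg3ctrl and 6, 17, 14 and 8 in Ndrg3TKO. After scaling, the highest Ndrg3TKO library, replicate 2 with 0.534 normalized CPM, lay just below the lowest control, replicate 4 with 0.549. The group levels were 0.682 ± 0.176 and 0.361 ± 0.164 (SD, n = 4 each), a log2 fold change of −0.88 (standard error 0.354) that did not pass the threshold. Among all tested genes, 3.59% had every Ndrg3TKO library below every control library, and Ccl5 and Gzmb were 2 of these. The pooled ratio was 0.545 (exact 95% interval 0.366 to 0.803). Both the RUNX matches and the AP-1 match printed for Gzmb lie within 93 bases of its RefSeq start.

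Gzmm (ENSMUSG00000054206.2; chromosome 10, 79689020 to 79695261, plus strand) was the most abundant granzyme, with 85, 49, 65 and 47 counts in Ndrg3ctrl and 91, 73, 56 and 59 in Ndrg3TKO. Replicate 1 was the highest library of each group after scaling, and the groups overlapped. Levels of 2.29 ± 0.470 and 2.25 ± 0.555 normalized CPM (SD, n = 4 each) gave a log2 fold change of −0.03 (standard error 0.211).

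Nkg7 encodes a membrane protein of cytotoxic granules that takes part in their release. The gene (ENSMUSG00000004612.9; chromosome 7, 43437073 to 43438249, plus strand) had 6884, 5277, 6502 and 6065 counts in Ndrg3ctrl and 7283, 9343, 8864 and 8509 in Ndrg3TKO. Scaled levels were 230.8, 259.3, 220.1 and 221.8 normalized CPM in Ndrg3ctrl and 241.4, 293.3, 296.1 and 261.2 in Ndrg3TKO. Control replicate 2 lay above the lowest Ndrg3TKO library, replicate 1, and all other controls lay below all Ndrg3TKO libraries. The log2 fold change was 0.23 (standard error 0.0723), 1.17-fold higher, and did not pass the threshold. It lay opposite in sign to that of Ccl5.

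**Figure D3:**
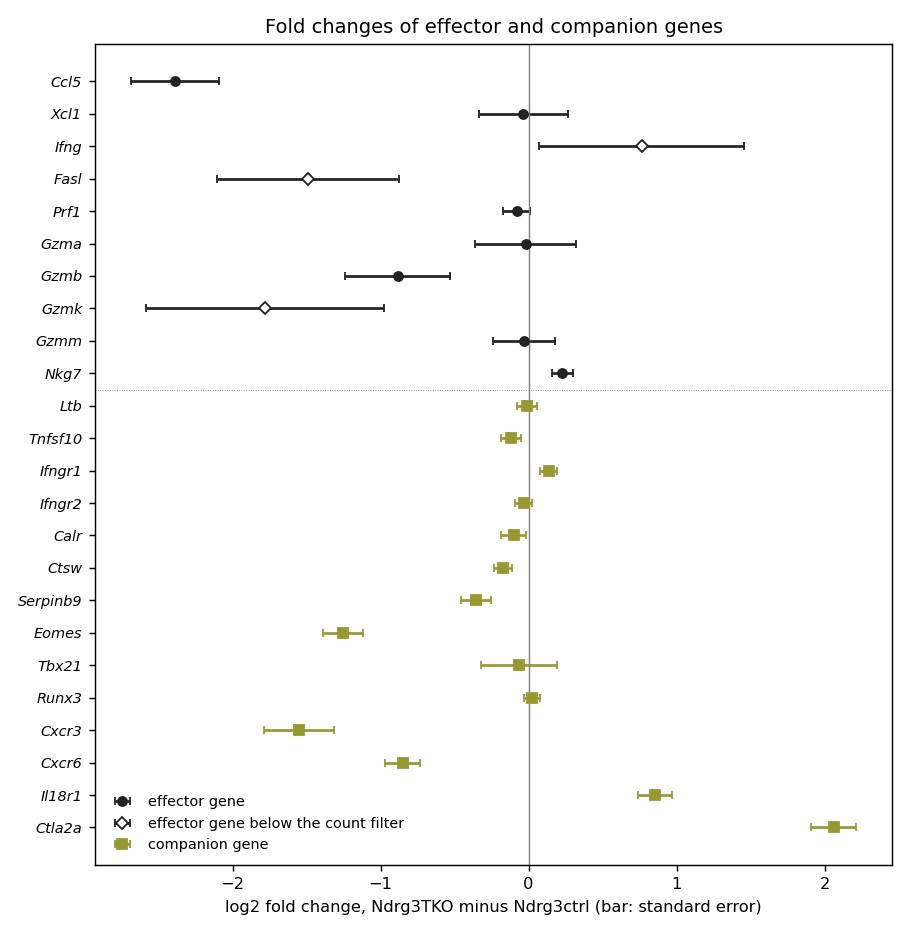
Log2 fold change of Ndrg3TKO against Ndrg3ctrl with its standard error for the 10 effector genes (black; open diamonds, genes below the count filter, from the fit without it) and for 14 companion genes (olive squares). Ccl5 lies at −2.39, Prf1, Gzma, Gzmm and Xcl1 lie between −0.08 and −0.02, and Nkg7 lies at 0.23. Of the companion genes, Eomes, Cxcr3, Cxcr6, Il18r1 and Ctla2a passed the threshold.

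The libraries with and without Y-linked counts were set side by side because Xcl1, Nkg7 and Gzmb had their highest values in such libraries. These values prompted the contrast, so its results are a description of the same libraries, without a test. All 3 libraries with Y-linked counts are replicates 2 or 3, which the header numbers place together. Of those replicates, only Ndrg3ctrl replicate 3 lacks such counts. Its Xcl1 (15.2 normalized CPM) was nearer to Ndrg3ctrl replicate 2 (17.8) than to replicates 1 and 4 (9.69 and 8.78). Its Nkg7 (220.1) and Gzmb (0.575) were nearer to replicates 1 and 4. Whether the high values follow the header numbers or the Y-linked counts was not tested. With genotype kept in the edgeR fit, the log2 difference between the 3 libraries with and the 5 without Y-linked counts was 0.22 for Nkg7 (standard error 0.0483), 0.68 for Xcl1 (standard error 0.188) and 0.88 for Gzmb (standard error 0.317), all higher with Y-linked counts. For Ccl5 it was 0.04 (standard error 0.328).

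Within the 5 libraries without Y-linked counts, Nkg7 was 220.1 to 230.8 normalized CPM in Ndrg3ctrl and 241.4 to 261.2 in Ndrg3TKO, without overlap. With Y-linked counts, the 1 control library had 259.3 and the Ndrg3TKO libraries 293.3 and 296.1. Over all 8 libraries the Nkg7 groups overlapped. The split was chosen after the values were seen and leaves few libraries in each set. How many of all genes separate in it was not counted. Gzmb stood at 0.549 to 0.671 in Ndrg3ctrl against 0.199 to 0.246 in Ndrg3TKO without Y-linked counts. With them it stood at 0.934 against 0.468 and 0.534. The ratio of Ndrg3TKO to Ndrg3ctrl for Ccl5 was 0.210 without and 0.154 with Y-linked counts. Gzmb and Ccl5 separated over all 8 libraries, so they must separate in any part of them, and nothing is read from that. Xcl1 overlapped in both.

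**Figure D4:**
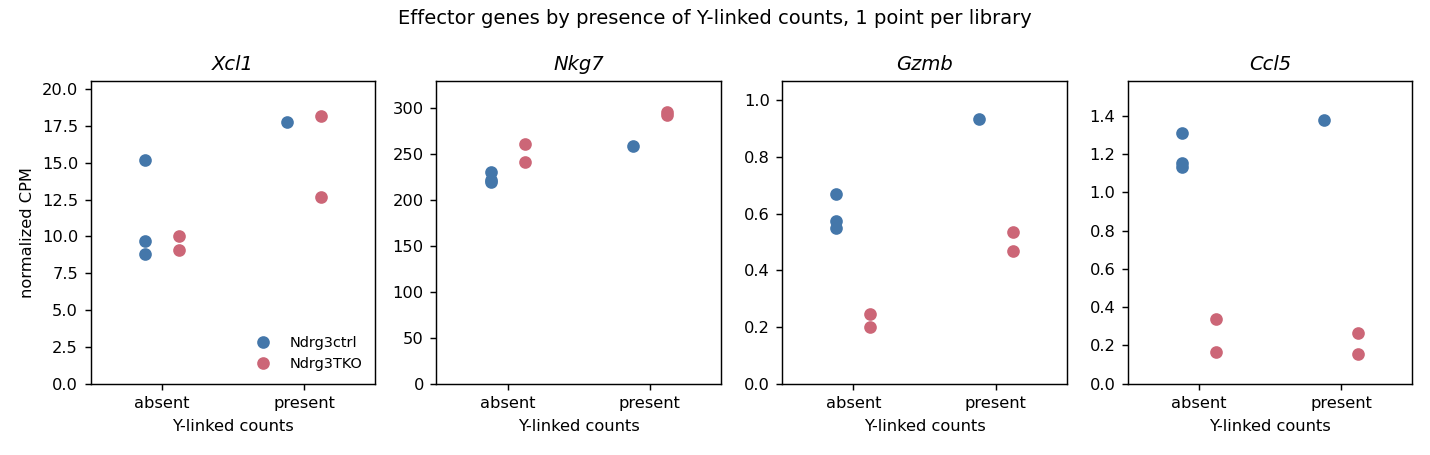
Normalized CPM of Xcl1, Nkg7, Gzmb and Ccl5 in the libraries without and with Y-linked counts (1 point per library; blue, Ndrg3ctrl; red, Ndrg3TKO). Without Y-linked counts, Nkg7 lies at 241.4 to 261.2 in Ndrg3TKO and at 220.1 to 230.8 in Ndrg3ctrl. The set with Y-linked counts holds 1 control library. Gzmb and Ccl5 separate over all 8 libraries and hence in each set, with Ccl5 at about the same levels in both. Xcl1 overlaps in both.

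The genes that serve this programme were followed in 6 lists of 87 companion genes, of which 63 passed the count filter. The lists were drawn up with earlier results of these data known. Of the 63, 2 were called higher and 3 lower by edgeR's quasi-likelihood test, with p adjusted over all 14633 genes, which is 7.94% beside 1.15% of all tested genes. The median log2 fold change of the 63 was −0.04, beside 0.00 for all genes tested.

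The granule machinery was counted deeply and none of its 16 tested genes was called by edgeR or by DESeq2, while Ctsw and Serpinb9 had an unadjusted p under 0.05. Their log2 fold changes ran from −0.36 to 0.18, with a median of −0.03. Calr encodes calreticulin, which chaperones perforin, and stood at 381 ± 49.3 normalized CPM in Ndrg3ctrl and 356 ± 25.9 in Ndrg3TKO (SD, n = 4 each). Ctsw encodes cathepsin W, a protease of cytotoxic lymphocytes, and stood at 356 ± 18.8 and 317 ± 22.2 (SD, n = 4 each; log2 fold change −0.17, edgeR adjusted p = 0.286). Serpinb9, the inhibitor that protects the killer from its own granzyme B, had 498, 322, 382 and 455 counts in Ndrg3ctrl and 337, 435, 358 and 384 in Ndrg3TKO. Its log2 fold change was −0.35 (standard error 0.102, edgeR adjusted p = 0.146).

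The other granzymes were nearly silent in both groups. Gzmd, Gzme, Gzmf, Gzmg and Gzmn had no count in any of the 8 libraries, and 3 counts would be 0.0918 to 0.142 CPM. Gzmc had 6, 7, 5 and 3 counts in Ndrg3ctrl and 1, 2, 4 and 3 in Ndrg3TKO.

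Of the other secreted or surface effectors, 7 of 16 passed the filter and none was called by edgeR, while DESeq2 called Tnfsf14, the only one with an unadjusted p under 0.05. The 2 most abundant were Ltb, encoding lymphotoxin beta, at 298 ± 33.5 and 295.9 ± 9.84 normalized CPM, and Tnfsf10, encoding the death ligand TRAIL, at 61.9 ± 6.09 and 56.9 ± 2.59 (SD, n = 4 each, control first). Their log2 fold changes were −0.01 and −0.12 (edgeR adjusted p = 0.977 and 0.566). Tnfsf14, named after its values were seen, was 0.64 higher on the log2 scale (standard error 0.156, edgeR adjusted p = 0.0729).

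Receptors of these ligands were tested for 4 of 7 genes and none was called by edgeR, while 3 had an unadjusted p under 0.05 and DESeq2 called Fas. Ifngr1 and Ifngr2, the chains of the interferon gamma receptor, had log2 fold changes of 0.14 and −0.03 (edgeR adjusted p = 0.413 and 0.871). Ccr1, Ccr3 and Xcr1 had at most 3 counts in any library.

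Among 19 transcription factors of effector and memory CD8 cells, all of them tested, Eomes was the single gene called by edgeR, and DESeq2 called Id3 as well. An unadjusted p under 0.05 in the edgeR fit was reached by 7 of the 19, Eomes among them, 1 higher and 6 lower. Eomes, the T-box factor of memory and innate-like CD8 cells, had 426, 322, 372 and 499 counts in Ndrg3ctrl and 157, 235, 209 and 192 in Ndrg3TKO, without overlap. Its log2 fold change was −1.26 (standard error 0.135, edgeR adjusted p = 1.70e-04), 2.39-fold lower. Tbx21, which encodes T-bet, had 43, 23, 40 and 44 counts against 21, 51, 50 and 44, and a log2 fold change of −0.06 (standard error 0.258, edgeR adjusted p = 0.955). Runx3, which fixes the CD8 lineage, stood at 295 ± 18.6 and 299.7 ± 6.83 normalized CPM (SD, n = 4 each; log2 fold change 0.02, edgeR adjusted p = 0.906).

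Markers of memory-like and innate-like CD8 cells held the other 4 called companions among 17 tested. The chemokine receptor genes Cxcr3 and Cxcr6 were lower in Ndrg3TKO: Cxcr3 by a log2 fold change of −1.55 (standard error 0.236, edgeR adjusted p = 0.00356) and Cxcr6 by −0.85 (standard error 0.120, edgeR adjusted p = 0.00413). Cxcr3 had 66, 36, 41 and 42 counts in Ndrg3ctrl and 17, 19, 15 and 22 in Ndrg3TKO. Il18r1, encoding an interleukin 18 receptor chain, was higher by 0.85 (standard error 0.112, edgeR adjusted p = 0.00109), and Ctla2a, encoding a cysteine protease inhibitor, by 2.06 (standard error 0.152, edgeR adjusted p = 3.51e-06). Ctla2a rose from 33 to 50 counts per library to 162 to 233. Of this list, edgeR thus called 2 higher and 2 lower, and the median log2 fold change was −0.15. An unadjusted p under 0.05 was reached by 11 genes, 4 higher and 7 lower, and DESeq2 called 7, adding Ly6c2, Samd3 and Itga4. These were named after their values were seen, with log2 fold changes of −0.73, −1.96 and 0.19.

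No tested gene within 200000 bases of the 10 effector genes was called by edgeR or DESeq2, of 34 tested, and 4 had an unadjusted p under 0.05. The nearest tested genes to Ccl5 were Taf15, an RNA-binding protein gene 19035 bases away on the side of lower coordinates, and the chemokine gene Ccl4, 132066 bases away on the other side. The log2 fold change of Taf15 was 0.03 (standard error 0.0611, edgeR adjusted p = 0.887). Ccl4 had 43, 44, 59 and 43 counts in Ndrg3ctrl and 64, 72, 63 and 46 in Ndrg3TKO, and a log2 fold change of 0.15 (standard error 0.206, edgeR adjusted p = 0.850).

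Likeness to Ccl5 was measured as Pearson's r of log2(CPM + 0.5) with each of 12626 tested genes, those with a mean of at least 1 CPM, and is a description with no test. Over all 8 libraries, where genotype carries most of the variation, the highest r were 0.994 for the targeted gene Ndrg3, 0.966 for Cxcr3, 0.965 for Arsb, 0.959 for Abcb9 and 0.957 for Chchd6. With each group's mean removed, the highest were 0.964 for Thoc6, 0.963 for Nat8f4, 0.943 for Nat2, 0.941 for Eml2 and 0.934 for Crcp. Ccl5 has 5 to 39 counts per library, so those within-group values rest largely on counting error. Of the effector genes, 4 had a mean of at least 1 CPM and none ranked above 2321 of 12626 in either order. Within groups, their r with Ccl5 was −0.28 for Gzmm, 0.17 for Prf1, 0.24 for Xcl1 and 0.31 for Nkg7.

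Among the 21 pairs of effector genes that passed the filter, within-group r ran from −0.28 to 0.97 with a median of 0.31, over the same 8 libraries. The highest was that of Gzmb and Nkg7, 0.97, and both genes had their 2 highest Ndrg3TKO values in replicates 2 and 3 and their highest control value in replicate 2. Gzmb has 6 to 20 counts per library, and its variance between libraries was 1.18 times that of counting in Ndrg3ctrl and 2.32 times in Ndrg3TKO. Counting error is thus a large part of the Gzmb values behind that r. Gzmm and Prf1 followed with 0.83, and both were highest in replicate 1 of each group. No p is given, since the pairs are ranked by this measure and share libraries.

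Effector genes are also expressed by natural killer (NK) cells, NKT cells and γδ T cells, so markers of these and of other cells were summed. The sort on TCRβ would remove NK cells and γδ T cells, which lack it. The 9 NK markers summed to 0.939 to 1.77 normalized CPM in Ndrg3ctrl and 2.42 to 3.16 in Ndrg3TKO (exact permutation p = 0.0286, the smallest that 70 splits allow, adjusted p = 0.157 over 11 lists). Klrb1c, an NK receptor gene, was the single marker called, and without it the other 8 summed to 0.671 to 1.17 and 0.942 to 1.14. Ncr1, Klra4 and Klra8 had no count in any library. The 7 NKT markers summed to 145 to 176 and 153 to 189, most of it Slamf6, which other T cells also express. Zbtb16, the defining factor of NKT cells, was below the count filter, with 10, 6, 6 and 4 counts in Ndrg3ctrl and 2, 1, 1 and 3 in Ndrg3TKO, and its groups did not overlap. The rest of this list did not follow Zbtb16. Klrb1c, which is also in it, was higher, with a log2 fold change of 2.62, while Traj18 (0.12) and Slamf6 (0.09) were not called. Trav11 had 2, 1, 3 and 2 counts in Ndrg3ctrl and 2, 6, 6 and 4 in Ndrg3TKO, and Trav11d had at most 3 in any library. Il4, another of the 7, had 1 count over all libraries. The 6 γδ markers summed to 13.5 to 17.1 and 15.5 to 23.5. B cell markers summed to 11.2 to 13.3 in Ndrg3ctrl and 8.72 to 9.52 in Ndrg3TKO (exact permutation p = 0.0286, adjusted p = 0.157), nearly all of it Cd79b, while Ms4a1 and Pax5 had at most 3 counts in any library. The other lists overlapped between the groups. The part of these cells in the Ccl5 values was not tested.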

How the data were processed

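RNA from sorted CD8SP TCRβ+ MHC-I high thymocytes of 4 Ndrg3ctrl and 4 Ndrg3TKO samples was made into stranded total RNA libraries after removal of ribosomal RNA. The authors trimmed the reads with cutadapt, mapped them with STAR (GRCm38.p4, GENCODE M9) and counted them per gene with featureCounts, and the deposited values are raw counts. How strand and multiply mapped reads were handled is not given in the sources used here. Identifiers were paired with symbols, positions and exon lengths of GENCODE M21, also on GRCm38, for 47224 of 47937 genes (98.5%).

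Genes were filtered with filterByExpr, scaled by TMM and fitted with glmQLFit (robust) and glmQLFTest in edgeR 4.0.16 under R 4.3.3, with Benjamini-Hochberg adjustment over all 14633 tested genes and a threshold of 0.05. The standard error is the absolute log2 fold change over the square root of F. Pooled ratios carry exact 95% intervals, conditional on the summed counts, and low counts exact Poisson intervals. Intervals and the floor of 3 counts cover counting error only, since PCR copies were not told apart by molecular identifiers. Single sums per library were compared by 2-sided exact permutation over 70 splits. The fits were tested on simulated counts.

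Total counts ran from 21126698 to 32668081, and replicates of a group differed from each other by chi-square values of 9.26 to 32.3 per gene, so none was a duplicate. The effector genes, companion lists, marker lists and motifs were chosen with earlier results of these data known. Named were all 10 effector genes, every called companion, Eomes, Tbx21, Runx3 and Serpinb9, the 2 most abundant tested genes of a companion list without a call, the nearest tested genes to Ccl5, the 5 genes most like Ccl5 by each measure, and Ndrg3. Some results of the companion and marker lists are not reported here. Alternatives covered DESeq2 1.42.0, other scaling (RLE, library totals), other filters, prior counts and pseudocounts, the replicate number as a block, Y-linked counts as a covariate and leaving out each library.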

Additional observations from a re-analysis of the deposited data

Results flagged for a closer look

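In groups of 4 libraries, a library was looked at again when its gap to the nearest other, as a share of the group's range, exceeded Dixon's 95% critical value. Over 22 measures in both groups, 44 checks in all, 3 libraries met this, where chance gives about 1 in 20, or 2.2. Gzmk in Ndrg3TKO replicate 1 stood at 0.199 normalized CPM (6 counts) while the other Ndrg3TKO libraries had 0 or 1 count. Fasl in Ndrg3ctrl replicate 2 stood at 0.688 normalized CPM (14 counts) while the other controls had 5 or 6. The 6 macrophage and monocyte markers summed to 4.44 normalized CPM in Ndrg3TKO replicate 1, the lowest of its group.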

How the results depend on the processing

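The log2 fold change of Ccl5, which this contrast chose, was −2.63 to −2.24 when 1 library was left out and −2.41 to −2.11 otherwise. It could not be tested where every library needs 10 counts, and 0 of the listed effector genes were then called. Replicate numbers are shared between the groups, but same-numbered libraries correlated at 0.240, 0.512, −0.06 and 0.387 after removal of group means, so not every pair exceeded 0.1 and the numbers were not taken to pair the samples. Replicates 1, 2 and 4 correlated best with their own number, and replicate 3 did not. The header numbers set replicate 1, replicates 2 and 3 together, and replicate 4 apart, with both genotypes in each. What this grouping stands for is not stated, and the edgeR fit reported leaves it out. The replicate block called 800 genes, 2 effector genes, 18 companions and 2 neighbours, in place of 168, 1, 5 and 0, and Nkg7 (log2 fold change 0.23) was the added effector gene. DESeq2 called 309 genes and 11 companions, the fit without a filter 274 and 8, and the Y-linked covariate 437 and 12. Leaving out 1 library gave 90 to 158 genes called, 1 effector gene in each case, 5 to 7 companions and 0 neighbours, and the number of genes called was lower by over 1.5 times without Ndrg3ctrl replicate 1, 3 or 4 (100, 110 and 104) and without Ndrg3TKO replicate 1, 3 or 4 (106, 90 and 107). It also turned the sign of some uncalled values: Gzma ranged from −0.24 to 0.077, Gzmm from −0.20 to 0.10, Prf1 from −0.17 to 0.00098, Xcl1 from −0.27 to 0.15, Tbx21 from −0.19 to 0.14, Runx3 from −0.011 to 0.054, Ltb from −0.043 to 0.071, Taf15 from −0.0053 to 0.084 and Thoc6 from −0.0078 to 0.057. With log2(CPM + 2), 3 of the 5 genes most like Ccl5 over the 8 libraries and 2 of the 5 within groups stayed among the first 5. Eomes, Cxcr3, Cxcr6, Il18r1, Ctla2a and Ndrg3 kept their direction and side of the threshold in every alternative run. Abcb9 lost its call without Ndrg3ctrl replicate 1 or 3 or Ndrg3TKO replicate 1, while Serpinb9, Ctsw, Tnfsf14, Fas, Id3, Ly6c2, Samd3, Itga4 and Cd79b, not called by the edgeR fit reported, were called in at least 1 alternative. The causes were not tested. Depth limits Gzmk, Ifng, Fasl, Gzma and Gzmb, with at most 20 counts per library.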
